A study of Homo sapiens with 16 samples.

Results

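Axon guidance ligands and receptors were described in H1 cells, a long-used line of human embryonic stem cells, under 2-deoxyglucose (2DG) and under 3 ligands of the TGFb superfamily. The genes were picked by symbol, with earlier results of these data known. They are the semaphorins of classes SEMA3 to SEMA7, the plexins, the neuropilins, the ephrins, the EphA and EphB receptors, the Slits, the Robo receptors, the netrins, the UNC5 receptors, and neurofascin (NFASC). This gave 63 of the 17738 genes in the table. Of 69 annotated symbols that fit these families, EPHA5, NRP1, NTN3, NTN5, PLXNB3 and ROBO4 were not analysed here.

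Polyadenylated RNA was sequenced in 16 libraries, 2 from each of 8 groups of wild-type H1 cells. The cells had been kept in E8 medium, and treatment lasted 24 h in E7, the same medium with TGFb left out, alone or with a ligand, 2DG or both. The groups were E7+ActivinA+2DG, E7+ActivinA, E7+NODAL+2DG, E7+NODAL, E7+TGFb+2DG, E7+TGFb, E7+2DG and E7 alone, with 2DG at 3 mM, Activin A at 100 ng/mL, NODAL at 100 ng/mL and TGFb at 1.74 ng/mL. The design asks how 2DG changes transcript levels with and without each ligand. All libraries come from 1 cell line, and nothing in the labels ties the 2 libraries of a group to separate cultures. The p-values below therefore reflect the spread between libraries, which may be technical.

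Guidance cues act in pairs of a ligand and a receptor. Secreted SEMA3 proteins bind a neuropilin that works together with a plexin, whereas membrane-bound semaphorins mostly bind plexins directly. Ephrins are held on the cell surface and activate Eph receptor tyrosine kinases on the neighbouring cell, Slits bind Robo receptors, and netrins bind DCC and the UNC5 receptors. Many of these genes are used well beyond the nervous system, in blood vessels, heart, epithelia and early embryos. 2DG is a glucose analogue that blocks glycolysis and disturbs glycosylation. Activin A, NODAL and TGFb signal through receptor kinases and SMAD proteins.

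Values are reads per gene scaled by a size factor of each library and are called normalised reads. A difference is the log2 fold change of the value plus 1, with its standard error (SE) from limma, and a gene was called at a Benjamini-Hochberg adjusted p under 0.05 over the 16714 genes tested. Groups said below not to overlap belong to genes picked because they were called, so this is no further evidence. The share of all genes without overlap was not counted. Genes entered the test when 2 or more libraries had values of 10 or higher. EPHA6, an Eph receptor at 0.942 to 6.86 normalised reads, did not reach this, so 62 of the 63 genes were tested, and the counts below are of these 62. The strand setting of the counting is not given in the sources used here. Exons of 16 of the genes overlap a gene on the opposite strand, over more than 10% of their bases for EFNB2 and SEMA4G, so the values of these genes may hold reads of the partner.

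The libraries held 14600479 to 17630329 recovered reads each, and mitochondrial genes took 5.46 to 6.69% of them. All 12 pluripotency markers of a fixed list were in the table, with summed values of 143355 to 182671 normalised reads over the libraries. Of these 12, Activin A in E7 called 0 higher and 5 lower (5.28% and 4.74% of all genes). NODAL in E7 called 0 higher and 6 lower (10.6% and 10.9%), and 2DG in E7 called 2 higher and 3 lower (14.6% and 14.8%). The neural crest markers SOX10 and PAX3 and the endothelial markers PECAM1 and CDH5 were not among the genes analysed here. The E7+ActivinA libraries stood apart: replicate 2 exceeded replicate 1 in 50 of the 62 guidance genes, with a median difference of 0.40 (log2) against 0.00 over all genes. Across all genes this replicate difference went with exon length (Spearman's rho = 0.46 in E7+ActivinA and -0.35 in E7). The guidance genes are long, with a median exon length of 6.98 kb against 4.57 kb for all tested genes, and 50 of 62 lie above that median. The part of length in each result was not tested beyond a fit on length-corrected values, chosen after seeing the data, which is named where it ends a call and for some calls that it left smaller.

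Per kb of exon, which allows levels to be compared between genes, the guidance genes spanned 0.59 to 992 normalised reads per kb as means over the 16 libraries. SEMA6A, a transmembrane semaphorin that binds class A plexins, stood highest at 992. EPHA1 followed with 663, EPHB4 with 350, ROBO1 with 257 and UNC5B with 238 normalised reads per kb. Apart from SEMA6A these are receptors, and SEMA4C (196), EFNB2 (191), PLXNB2 (182), PLXNA1 (163) and PLXNB1 (141) came next. At the other end EPHA6 had 0.59, EPHA10 had 1.27, SLIT3 had 1.44, PLXNA4 had 2.07 and UNC5C had 2.31 normalised reads per kb. Some genes varied little between libraries, such as EPHA1 at 2613 to 3604 normalised reads and EFNB3, a transmembrane ephrin, at 250.4 to 338. Others varied widely, such as SEMA3C at 74.0 to 839, NFASC at 77.2 to 986 and EPHA3 at 1.05 to 119.6 normalised reads.

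**Figure D1:**
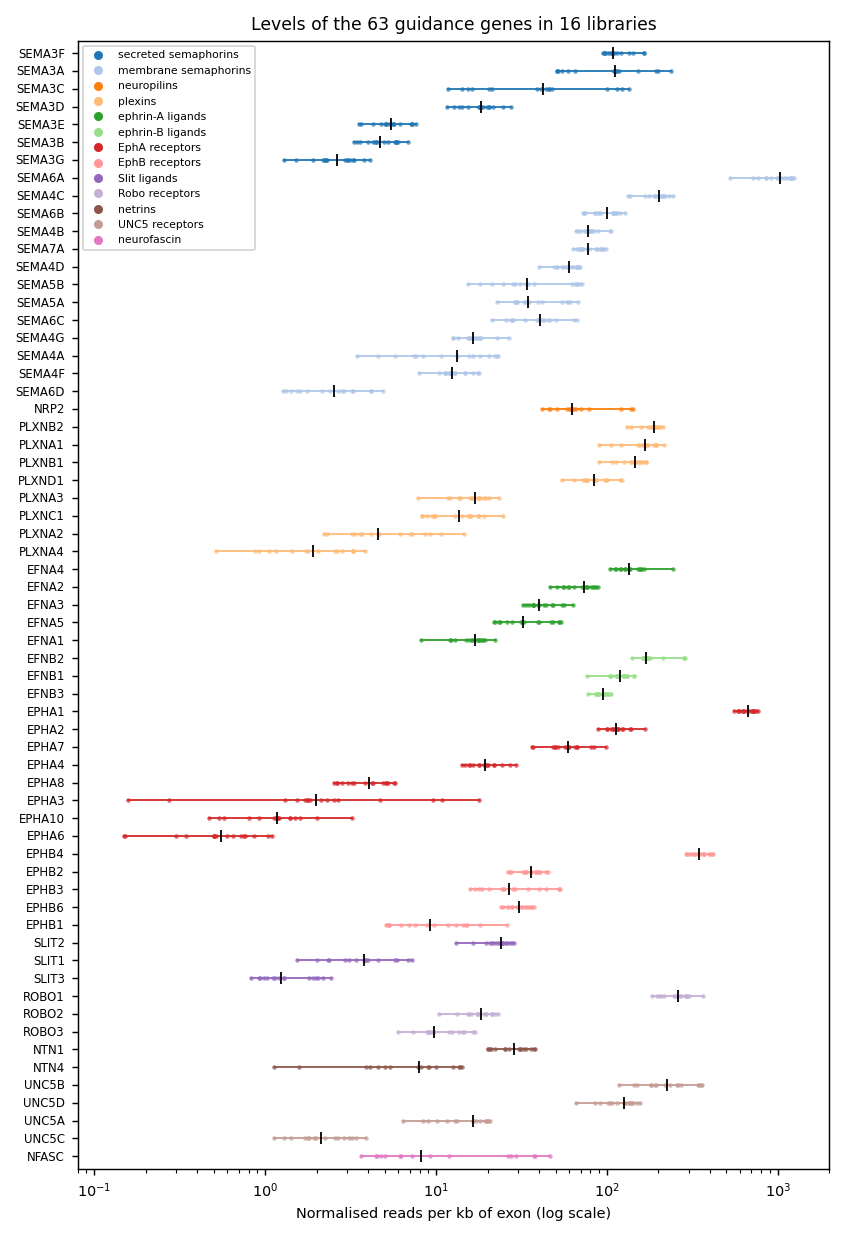
Levels of the 63 guidance genes, grouped by role, as normalised reads per kb of exon on a log axis. Each point is 1 of the 16 libraries and the black tick is the median. SEMA6A, with a mean of 992 per kb, lies highest and EPHA6, with 0.59, lowest.

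2DG in plain E7 called 23 guidance genes higher and 3 lower, or 41.9% of the 62, against 29.4% of all genes tested, of which 14.6% were higher and 14.8% lower. The median change of the 62 was 0.29 (log2), against -0.00 over all genes. Plexins (7 of 8 higher), UNC5 receptors (3 of 4 higher), netrins (2 of 2 higher) and membrane semaphorins (6 of 13 higher) held most of these calls. Secreted semaphorins held 0 higher and 2 lower of 7, and EphA receptors, Slits and ephrin-B ligands held no call. Over all genes the log2 fold change went with exon length (rho = 0.31), and on length-corrected values 19 guidance genes were higher and 5 lower, beside 32.7% of all genes called there. Leaving out replicate 2 of E7 reduced the 26 calls to 11, and leaving out replicate 1 or 2 of E7+2DG reduced them to 16 or 15. The 10 calls kept in each of the 16 refits without 1 library were SEMA3C, SEMA3A, PLXNA2, PLXNC1, SEMA5B, SEMA4C, EPHB1, EPHB2, EFNA5 and UNC5B.

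The same treatment was also given in each ligand medium. For all genes, the change with 2DG went with exon length in Activin A medium (rho = 0.32) and on average over the 4 media (rho = 0.19). In NODAL medium rho was -0.11, and in TGFb medium it was 0.01. In TGFb medium 2DG called 8 guidance genes higher and 4 lower (background 9.84%, with 5.47% higher and 4.37% lower). That count of 12 became 6 and 4 without replicates 1 and 2 of E7+TGFb, 6 and 4 without replicates 1 and 2 of E7+TGFb+2DG, and 20 without either E7+ActivinA library. In NODAL medium 2DG called 4 higher and 8 lower (background 5.88%, with 3.11% higher and 2.76% lower). That count became 5 without either library of E7+NODAL or replicate 1 of E7+NODAL+2DG, 6 without its replicate 2, and 19 and 20 without E7+ActivinA replicates 1 and 2. In Activin A medium 2DG called 5 higher and 0 lower (background 1.7%, with 1.48% higher and 0.221% lower). That count became 1 and 27 without E7+ActivinA replicates 1 and 2, 12 and 0 without E7+ActivinA+2DG replicates 1 and 2, and 2 without any 1 library of E7+2DG, E7+TGFb, E7+TGFb+2DG, E7+NODAL or E7+NODAL+2DG. Averaged over the 4 media, 2DG called 19 higher and 11 lower, or 48.4%, against 38.6% of all genes (19.2% higher and 19.4% lower). The averaged count stayed between 24 and 38 in refits without 1 library, and 24 of the 30 calls were kept in all of them.

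The ligands were compared with no ligand, both without and with 2DG. The comparisons of 2DG and of each ligand in E7 share the same E7 libraries, and those of the ligands with 2DG share the E7+2DG libraries. Over all genes the log2 fold change went with exon length for TGFb (rho = 0.42), NODAL (rho = 0.22) and Activin A (rho = 0.13) in E7. With 2DG present, rho was -0.31 for NODAL, -0.12 for TGFb and -0.03 for Activin A. Activin A in E7 called 13 guidance genes higher and 3 lower (background 10%, with 5.28% higher and 4.74% lower), with a median of 0.24 (log2) against -0.01 over all genes, and the count of 16 became 25 without E7+ActivinA replicate 1. NODAL in E7 called 17 higher and 0 lower (background 21.5%, with 10.6% higher and 10.9% lower), with a median of 0.36 against 0.01 over all genes. The NODAL count became 5 without E7 replicate 2, 9 and 5 without E7+NODAL replicates 1 and 2, and 30 without either E7+ActivinA library. TGFb in E7 called 0 guidance genes and 0 of all genes (background 0%) with limma and with edgeR's count test. At an unadjusted p under 0.05, TGFb had 21 of the 62 and 3771 of all genes, and without either E7+ActivinA library limma called 19 guidance genes, all higher. With 2DG present, Activin A called 9 higher and 6 lower (background 7.52%, with 4.27% higher and 3.25% lower), a count of 15 that became 8 without E7+2DG replicate 2. NODAL then called 0 higher and 1 lower (background 0.634%, with 0.425% higher and 0.209% lower). TGFb with 2DG called 0 (background 0%) with limma and with edgeR, and 0 of the 62 and 273 of all genes had an unadjusted p under 0.05.

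**Figure D2:**
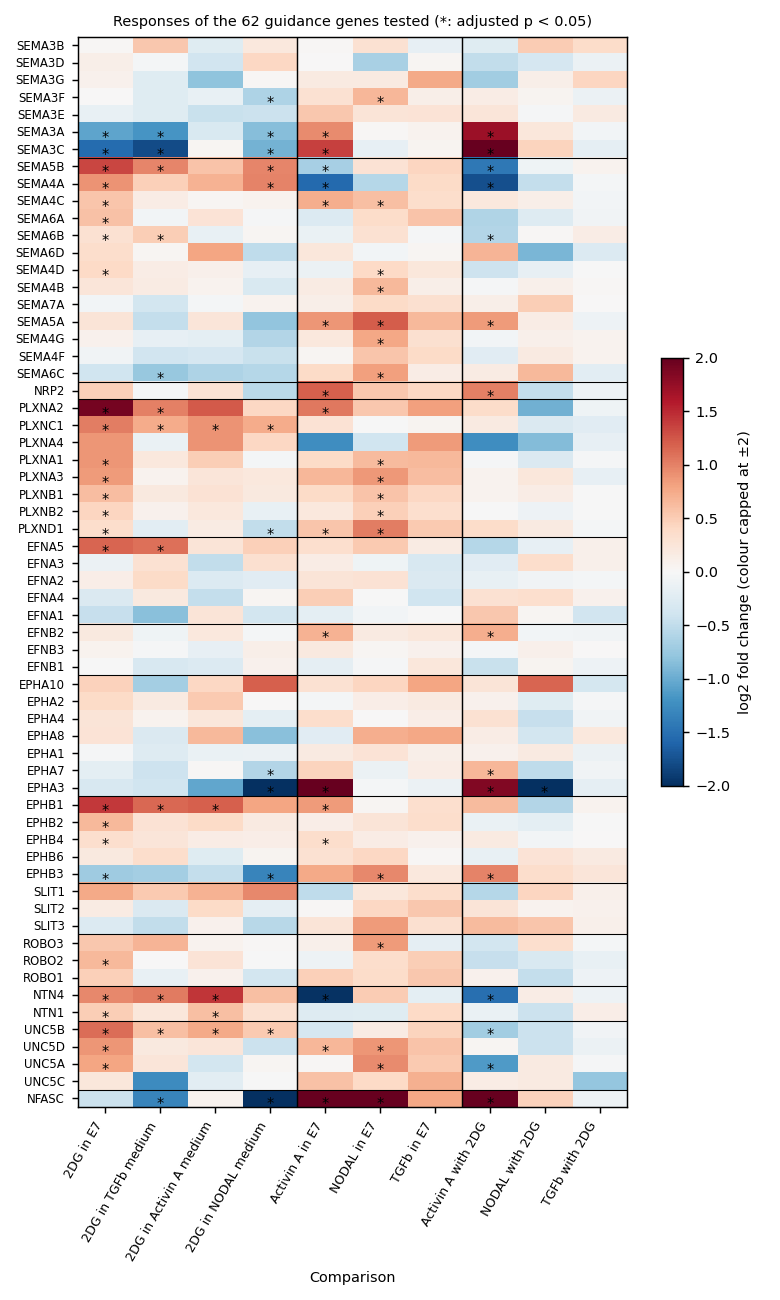
log2 fold change of the 62 tested guidance genes (rows, grouped by role) in 10 comparisons (columns), with the colour capped at 2 in either direction and a star where the adjusted p was under 0.05. SEMA3A and SEMA3C are lower with 2DG in E7, TGFb and NODAL media and higher with Activin A, with and without 2DG.

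Among the secreted semaphorins, SEMA3C and SEMA3A fell with 2DG in 3 of the 4 media and rose with Activin A. SEMA3C is known from heart outflow tract and neural crest development, and SEMA3A is the prototype axon repellent. In E7, SEMA3C had 89.2 and 102 normalised reads with 2DG and 286 and 275 without it (-1.55, SE 0.16, adjusted p = 0.00013). SEMA3A had 513 and 484 with 2DG and 1035 and 1035 without it (-1.05, SE 0.12, adjusted p = 0.00025). In neither gene did the groups overlap. In TGFb medium SEMA3C had 96.1 and 74.0 normalised reads with 2DG and 286 and 299 without it (-1.78, SE 0.16, adjusted p = 3.2e-05). SEMA3A had 476 and 479 with 2DG and 1070.3 and 1106 without it (-1.19, SE 0.12, adjusted p = 0.00012). Again all libraries with 2DG were the lower ones. In NODAL medium SEMA3C had 133 and 128 normalised reads with 2DG and 258 and 245 without it (-0.94, SE 0.16, adjusted p = 0.0036). SEMA3A had 553 and 611 with 2DG and 1043 and 1053 without it (-0.85, SE 0.12, adjusted p = 0.0018), also with no overlap.

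Activin A raised both genes. In E7, SEMA3C had 624 and 839 normalised reads with Activin A and 286 and 275 without it (1.36, SE 0.16, adjusted p = 9.3e-05). SEMA3A had 1819 and 2209 with Activin A and 1035 and 1035 without it (0.95, SE 0.12, adjusted p = 0.00024). The Activin A libraries lay above both E7 libraries in each gene. With 2DG present, SEMA3C had 719 and 765 normalised reads with Activin A and 89.2 and 102 without it (2.94, SE 0.16, adjusted p = 7.4e-08). SEMA3A had 1855 and 1425 with Activin A and 513 and 484 without it (1.70, SE 0.12, adjusted p = 1e-06). All the calls of SEMA3C and SEMA3A given so far were kept without any 1 library. NODAL in E7 left both uncalled, at -0.16 for SEMA3C (adjusted p = 0.5) and 0.02 for SEMA3A (adjusted p = 0.94). Set directly against NODAL without 2DG, Activin A was higher for SEMA3C (1.52, SE 0.16, adjusted p = 0.00013) and for SEMA3A (0.94, SE 0.12, adjusted p = 0.0007). That direct comparison called 6 guidance genes higher and 10 lower (background 8.01%, with 3.58% higher and 4.43% lower), a count that became 5 without either E7+NODAL library.

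In Activin A medium the SEMA3C libraries with 2DG, at 719 and 765 normalised reads, lay within the range of those without it, at 624 and 839 (0.04, SE 0.16, adjusted p = 0.92). The 2DG response in this medium minus that in E7 alone was called for SEMA3C (1.58, SE 0.22, adjusted p = 0.019), the 1 guidance gene called for this difference (background 0.0419%). The call was lost in 10 of 16 refits without 1 library (adjusted p from 0.05 to 0.14), namely without either library of E7, E7+2DG, E7+TGFb, E7+NODAL or E7+NODAL+2DG. The count of 1 became 0 in those refits, 15 without E7+ActivinA replicate 1, and 3 without E7+ActivinA replicate 2 or E7+ActivinA+2DG replicate 2. SEMA3A was not called for this difference (0.75, SE 0.17, adjusted p = 0.24). In Activin A medium SEMA3A had 1855 and 1425 normalised reads with 2DG and 1819 and 2209 without it, which was not called.

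**Figure D3:**
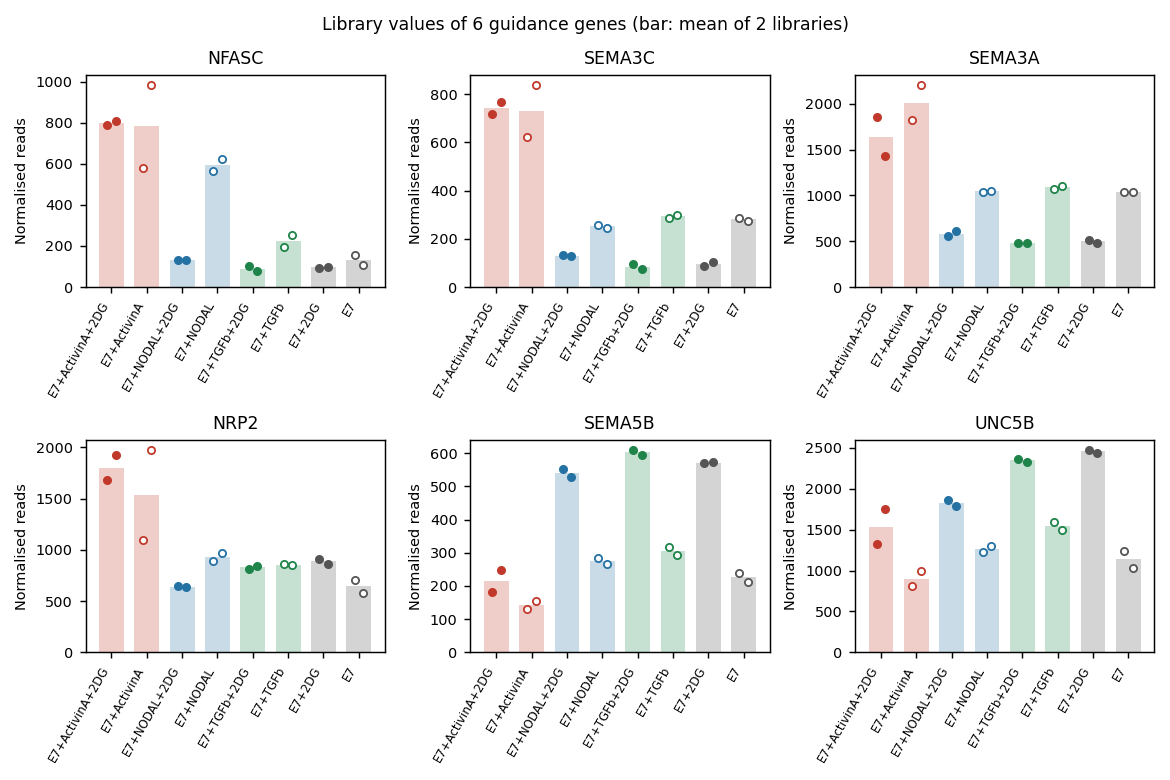
Normalised reads of NFASC, SEMA3C, SEMA3A, NRP2, SEMA5B and UNC5B in each of the 8 groups, with 1 point per library, filled with 2DG and open without it, and a bar at the mean of 2 libraries. SEMA3C lies at 74.0 to 133 normalised reads in the 6 libraries with 2DG but no Activin A, and at 624 to 839 in the 4 with Activin A.

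The other class 3 semaphorins held fewer calls. SEMA3F, a ligand of neuropilin-2, had 797 and 796 normalised reads in E7+NODAL and 532 and 469 in E7 (0.67, SE 0.15, adjusted p = 0.0074). This call was lost on leaving out replicate 2 of E7 (adjusted p 0.083) or replicate 2 of E7+NODAL (adjusted p 0.061). In NODAL medium SEMA3F had 520.3 and 519 with 2DG and 797 and 796 without it (-0.61, SE 0.15, adjusted p = 0.027), a call lost on leaving out either E7+NODAL library (adjusted p 0.15 and 0.16) or either E7+NODAL+2DG library (adjusted p 0.17 and 0.15). The E7+NODAL libraries were thus the high ones in both comparisons. SEMA3B, SEMA3D, SEMA3E and SEMA3G, at 6.45 to 220 normalised reads over the 16 libraries, were called in none of the 15 comparisons.

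SEMA3C lies on the minus strand of chromosome 7 (80742538 to 80922359, GRCh38), and the RefSeq promoter table gives it a pair of transcription starts. Its promoters are shown because it was called in opposite directions with 2DG and with Activin A, beside those of NFASC and NRP2, which also rose with Activin A. Of a pair of NFASC windows in the table, the one at the gene's first start is printed. Each line is the 250 bases before a start, on the gene's strand, in RefSeq's GRCh38.p14: SEMA3C start A at chr7:80919052-80919301 (minus), SEMA3C start B at chr7:80922390-80922639 (minus), NFASC at chr1:204828402-204828651 (plus) and NRP2 at chr2:205682251-205682500 (plus). Capitals mark matches to the motifs searched on both strands.
SEMA3C start A: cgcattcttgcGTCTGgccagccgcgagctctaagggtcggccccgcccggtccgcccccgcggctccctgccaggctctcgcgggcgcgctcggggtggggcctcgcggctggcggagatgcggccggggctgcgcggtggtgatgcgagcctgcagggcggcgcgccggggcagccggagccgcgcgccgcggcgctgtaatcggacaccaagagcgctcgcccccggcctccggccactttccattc
SEMA3C start B: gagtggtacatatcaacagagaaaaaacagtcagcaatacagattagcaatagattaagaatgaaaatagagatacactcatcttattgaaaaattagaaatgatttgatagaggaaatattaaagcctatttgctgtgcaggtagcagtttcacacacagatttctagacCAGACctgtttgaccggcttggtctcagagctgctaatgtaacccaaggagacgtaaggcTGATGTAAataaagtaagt
NFASC: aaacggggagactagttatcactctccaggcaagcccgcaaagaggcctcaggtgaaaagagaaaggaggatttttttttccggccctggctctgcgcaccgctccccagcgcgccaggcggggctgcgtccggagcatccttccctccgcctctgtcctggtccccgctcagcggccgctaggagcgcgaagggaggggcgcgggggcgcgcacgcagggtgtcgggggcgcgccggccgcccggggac
NRP2: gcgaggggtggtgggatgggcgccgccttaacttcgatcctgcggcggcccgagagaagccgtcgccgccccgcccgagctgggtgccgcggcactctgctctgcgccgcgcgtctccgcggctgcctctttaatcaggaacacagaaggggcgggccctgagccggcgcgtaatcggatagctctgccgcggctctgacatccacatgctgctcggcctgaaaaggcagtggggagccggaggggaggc
The letters searched were the SMAD box CAGAC, the SMAD palindrome GTCTAGAC, the FOXH1 element TGTGGATT and the C/EBP-ATF element TGATGNAA. CAGAC and GTCTAGAC share the letters AGAC, but neither contains the other. Both SEMA3C windows held CAGAC, on the opposite strand at start A, and start B also held TGATGNAA. Both NFASC windows and the NRP2 window held none of these motifs. CAGAC was present in 29 of 87 windows of the guidance genes (33.3%) and in 38.0% of the 35116 windows of all genes, and TGATGNAA in 2 of 87 (2.30%, SEMA3C and SEMA4A) and in 3.14% of all. TGTGGATT was in 1 of 87 (SEMA3E) and in 0.709% of all, and GTCTAGAC in 0 of 87 and in 0.182% of all. The SEMA3C windows differed in composition, with 77.6% G or C and 39 CpG pairs at start A and 36.4% and 2 CpG pairs at start B. The table matched 55 of the 63 genes, without SEMA3A, SEMA6A, SEMA6B, UNC5B, UNC5D, EFNB3, NTN1 and EPHA10.

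NRP2, a co-receptor of class 3 semaphorins and of VEGF-C on chromosome 2 (205681990 to 205798133, plus strand), was the 1 neuropilin measured, and it rose with Activin A. In E7 it had 1097 and 1975 normalised reads with Activin A and 709 and 582 without it (1.20, SE 0.19, adjusted p = 0.0014), kept without any 1 library. The Activin A values differ widely from each other but both exceed E7, and leaving out replicate 1 or 2 of E7+ActivinA gave a difference of 1.62 or 0.77. With 2DG present NRP2 had 1686 and 1921 normalised reads with Activin A and 915 and 867 without it (1.01, SE 0.19, adjusted p = 0.0045), a call lost on leaving out replicate 2 of E7+2DG (adjusted p 0.051). 2DG in E7 (0.47, SE 0.19, adjusted p = 0.082) and NODAL in E7 (0.53, SE 0.19, adjusted p = 0.064) did not pass the test.

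Of the 8 plexins, which carry the semaphorin signal into the cell, 7 rose with 2DG in E7 (14.6% of all genes were higher) and 5 rose with NODAL in E7 (10.6% of all genes were higher). With 2DG, 2 of the 8 were called higher in TGFb medium (5.47% of all genes) and 1 in Activin A medium (1.48%). In NODAL medium 2DG called 1 of the 8 higher and 1 lower (3.11% and 2.76% of all genes). PLXNA2, a receptor of SEMA6A, had 147 and 96.8 normalised reads with 2DG and 31.6 and 30.4 in E7 alone (1.91, SE 0.29, adjusted p = 0.00081). PLXNC1, the receptor of SEMA7A, had 176 and 188 with 2DG and 81.4 and 97.4 in E7 alone (1.02, SE 0.20, adjusted p = 0.0026). Both stood clear of the E7 values, and both calls were kept without any 1 library. Averaged over the 4 media, PLXNA2 (1.14, SE 0.15, adjusted p = 6.4e-05) and PLXNC1 (0.85, SE 0.10, adjusted p = 2.6e-05) were also higher with 2DG and kept throughout. In TGFb medium PLXNA2 had 126 and 100.1 normalised reads with 2DG and 49.3 and 62.8 without it (1.00, SE 0.29, adjusted p = 0.046), a call lost in 10 of 16 refits without 1 library (adjusted p from 0.058 to 0.27), namely without either library of E7, E7+TGFb, E7+TGFb+2DG, E7+NODAL or E7+NODAL+2DG.

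PLXNC1 was called with 2DG in each ligand medium too, and in each both libraries with 2DG exceeded both without it. In TGFb medium it had 157 and 152 normalised reads with 2DG and 96.5 and 88.1 without it (0.74, SE 0.20, adjusted p = 0.031), a call lost on leaving out either E7+TGFb library (adjusted p 0.11 and 0.19) or either E7+TGFb+2DG library (adjusted p 0.16 and 0.13). In NODAL medium it had 158 and 140.3 with 2DG and 81.3 and 97.1 without it (0.74, SE 0.20, adjusted p = 0.041), a call lost in 10 of 16 refits without 1 library (adjusted p from 0.06 to 0.27), namely without either library of E7+2DG, E7+TGFb, E7+TGFb+2DG, E7+NODAL or E7+NODAL+2DG. In Activin A medium it had 173 and 243 with 2DG and 93.8 and 128 without it (0.90, SE 0.20, adjusted p = 0.036), a call lost in 12 of 16 refits without 1 library (adjusted p from 0.055 to 0.55), namely without either library of E7+2DG, E7+TGFb, E7+TGFb+2DG, E7+NODAL or E7+NODAL+2DG, or replicate 1 of E7+ActivinA or replicate 2 of E7+ActivinA+2DG. PLXNA1 (0.89), PLXNA3 (0.85), PLXNB1 (0.62), PLXNB2 (0.43) and PLXND1 (0.35) were the other plexins called higher with 2DG in E7. PLXNA1 had an adjusted p of 0.0053 and was lost on leaving out replicate 2 of E7 (adjusted p 0.075). PLXNB1 had an adjusted p of 0.0042 and was lost on leaving out replicate 2 of E7 (adjusted p 0.062). PLXNA3 had an adjusted p of 0.019 and was lost on leaving out replicate 2 of E7 (adjusted p 0.21) or replicate 1 of E7+2DG (adjusted p 0.13). On length-corrected values these 3 kept their calls at smaller changes of 0.59 for PLXNA1, 0.37 for PLXNB1 and 0.52 for PLXNA3. PLXNB2 had an adjusted p of 0.04 and was lost in 11 of 16 refits without 1 library (adjusted p from 0.05 to 0.3), namely without either library of E7+2DG, E7+TGFb, E7+TGFb+2DG, E7+NODAL or E7+NODAL+2DG, or replicate 2 of E7. PLXND1 had an adjusted p of 0.039, was lost in 11 of 16 refits without 1 library (adjusted p from 0.055 to 0.31), namely without either library of E7+2DG, E7+TGFb, E7+TGFb+2DG, E7+NODAL or E7+NODAL+2DG, or replicate 2 of E7, and was not called on length-corrected values (0.11, adjusted p = 0.32).

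PLXND1, the receptor that SEMA3E binds without a neuropilin, had 1156 and 1186 normalised reads in E7+NODAL and 626 and 529 in E7 (1.02, SE 0.12, adjusted p = 0.00033), kept without any 1 library. With Activin A in E7 it had 741 and 969, against 626 and 529 in E7 (0.56, SE 0.12, adjusted p = 0.0088), a call lost on leaving out replicate 2 of E7 (adjusted p 0.12). All libraries with either ligand exceeded both E7 libraries. In NODAL medium PLXND1 was lower with 2DG, at 823 and 839 normalised reads against 1156 and 1186 without it. This call was not kept in every refit without 1 library. The other plexins called with NODAL in E7 were PLXNA1, PLXNA3, PLXNB1 and PLXNB2. PLXNA1 rose by 0.63 (adjusted p = 0.034), lost on leaving out replicate 2 of E7 (adjusted p 0.29) or either E7+NODAL library (adjusted p 0.089 and 0.19). PLXNA3 rose by 0.87 (adjusted p = 0.023), lost on leaving out replicate 2 of E7 (adjusted p 0.22) or either E7+NODAL library (adjusted p 0.092 and 0.12). PLXNB1 rose by 0.57 (adjusted p = 0.0086), lost on leaving out replicate 2 of E7 (adjusted p 0.11) or replicate 2 of E7+NODAL (adjusted p 0.09). PLXNB2 rose by 0.48 (adjusted p = 0.035), lost in 7 of 16 refits without 1 library (adjusted p from 0.051 to 0.27), namely without either library of E7+TGFb, E7+TGFb+2DG or E7+NODAL, or replicate 2 of E7. PLXNA4, at 8.44 to 63 normalised reads, was called in none of the 15 comparisons.

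Among the 13 membrane-bound semaphorins, SEMA5B, which carries thrombospondin repeats outside the cell, rose with 2DG in 3 media. In E7 it had 571 and 572 normalised reads with 2DG and 240.3 and 211 without it (1.34, SE 0.14, adjusted p = 0.00017). In TGFb medium it had 609.7 and 595 with 2DG and 317 and 294 without it (0.98, SE 0.14, adjusted p = 0.0013). In NODAL medium it had 551 and 529 with 2DG and 284 and 265 without it (0.97, SE 0.14, adjusted p = 0.0019). The groups did not overlap in these media, and the calls were kept without any 1 library. In Activin A medium SEMA5B had 181 and 247 with 2DG and 131 and 154 without it, which did not pass the test (0.57, SE 0.14, adjusted p = 0.068). Activin A lowered SEMA5B. With 2DG present it had 181 and 247 normalised reads with Activin A and 571 and 572 without it (-1.43, SE 0.14, adjusted p = 2.1e-05), kept without any 1 library. Without 2DG it had 131 and 154 with Activin A and 240.3 and 211 in E7 (-0.66, SE 0.14, adjusted p = 0.01), a call lost on leaving out replicate 1 of E7 (adjusted p 0.081).

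SEMA4A, a class 4 semaphorin known from the immune system and retina, also fell with Activin A. With 2DG present it had 39.2 and 50.5 normalised reads with Activin A and 156 and 150.1 without it (-1.76, SE 0.21, adjusted p = 9.8e-05). Without 2DG it had 23.5 and 31.1 with Activin A and 90.0 and 73.1 in E7 (-1.55, SE 0.21, adjusted p = 0.00033). Both calls were kept without any 1 library, and the Activin A libraries lay below all others in each comparison. Averaged over the 4 media, SEMA4A was higher with 2DG (0.77, SE 0.11, adjusted p = 9.9e-05), kept without any 1 library. In NODAL medium it had 113 and 107 normalised reads with 2DG and 57.0 and 51.8 without it (1.00, SE 0.21, adjusted p = 0.015), a call lost on leaving out either E7+NODAL library (adjusted p 0.074 and 0.13) or either E7+NODAL+2DG library (adjusted p 0.13 and 0.093). SEMA6B had 321 and 325 normalised reads with Activin A and 2DG and 477 and 495 with 2DG alone (-0.59, SE 0.11, adjusted p = 0.0033), kept without any 1 library. SEMA4C, a ligand of PLXNB2, was higher in E7 with 2DG (0.56, adjusted p = 0.0012), with Activin A (0.73, adjusted p = 0.00019) and with NODAL (0.60, adjusted p = 0.0012). These 3 comparisons share the E7 libraries, at 842 and 815 normalised reads, and each call was kept without any 1 library.

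SEMA5A, a relative of SEMA5B, rose with NODAL and with Activin A in E7. It had 731 and 718 normalised reads in E7+NODAL and 358 and 274 in E7 (1.21, SE 0.23, adjusted p = 0.0035), a call lost on leaving out replicate 2 of E7 (adjusted p 0.052). With Activin A it had 405 and 822, against 358 and 274 in E7 (0.88, SE 0.23, adjusted p = 0.027), a call lost on leaving out replicate 2 of E7 (adjusted p 0.22) or replicate 2 of E7+ActivinA (adjusted p 0.084). The 2 Activin A libraries of SEMA5A lay far apart. SEMA4B had 737 and 728 normalised reads in E7+NODAL and 476 and 461 in E7 (0.65, SE 0.09, adjusted p = 0.00094), kept without any 1 library. SEMA6C was lower with 2DG on average over the 4 media (-0.59, SE 0.09, adjusted p = 0.00029), kept without any 1 library. In TGFb medium SEMA6C had 159.8 and 124 with 2DG and 249 and 230.5 without it (-0.76, SE 0.19, adjusted p = 0.021), a call lost on leaving out either E7+TGFb library (adjusted p 0.14 and 0.1) or replicate 2 of E7+TGFb+2DG (adjusted p 0.19). SEMA6A, the most abundant guidance gene per kb, had 13662 and 12932 normalised reads with 2DG and 10033 and 7821 in E7 (0.59, SE 0.17, adjusted p = 0.022), a call lost on leaving out replicate 2 of E7 (adjusted p 0.22) or either E7+2DG library (adjusted p 0.11 and 0.07), and the change was 0.29 on length-corrected values (adjusted p = 0.02). SEMA4D, the ligand of PLXNB1, had 942 and 974 with 2DG and 769 and 693 in E7 (0.39, SE 0.13, adjusted p = 0.037), and its direction turned on length-corrected values (-0.01, adjusted p = 0.93). That call was lost in 12 of 16 refits without 1 library (adjusted p from 0.051 to 0.23), namely without either library of E7, E7+2DG, E7+TGFb, E7+TGFb+2DG, E7+NODAL or E7+NODAL+2DG. SEMA6D and SEMA7A were called in none of the 15 comparisons.

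**Figure D4:**
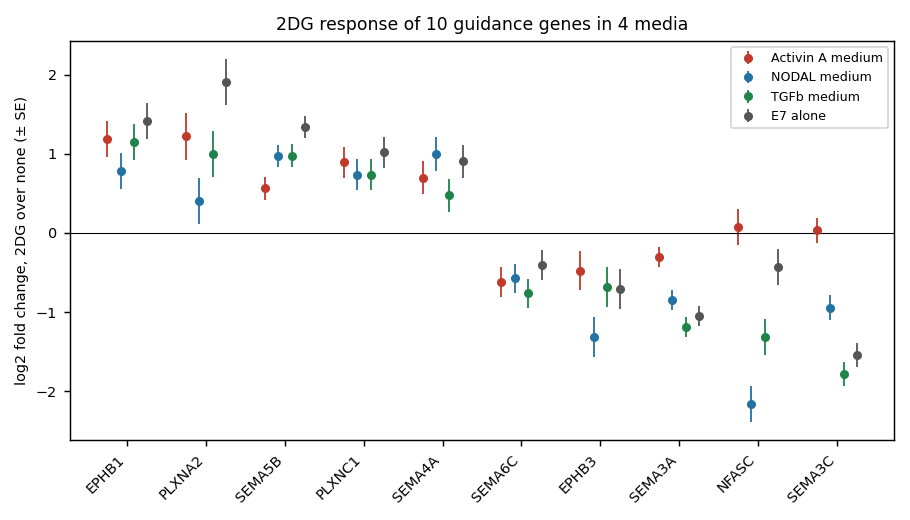
log2 fold change with 2DG (point) and its standard error (line) for 10 guidance genes in each of the 4 media. EPHB1, PLXNA2, SEMA5B, PLXNC1 and SEMA4A lie above 0 in all 4 media, and SEMA3C and NFASC lie near 0 in Activin A medium and below it in the other media.

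Among the ephrins, EFNA5 rose with 2DG and EFNB2 rose with Activin A. EFNA5, an ephrin-A held by a lipid anchor, had 268 and 297 normalised reads with 2DG in E7 and 125 and 125 without it (1.17, SE 0.18, adjusted p = 0.00095). In TGFb medium it had 305 and 298 with 2DG and 133 and 148 without it (1.10, SE 0.18, adjusted p = 0.0028). The groups did not overlap, and both calls were kept without any 1 library. EFNB2, a transmembrane ephrin known as the arterial partner of EPHB4, had 1062 and 1419 normalised reads with Activin A and 811 and 704 in E7 (0.70, SE 0.12, adjusted p = 0.0021). With 2DG present it had 1436 and 1415 with Activin A and 879.6 and 848 without it (0.72, SE 0.12, adjusted p = 0.0015). Both calls were kept without any 1 library, and the Activin A libraries were the higher ones in each. EFNA1 was called lower with 2DG on average over the 4 media (-0.35, SE 0.13, adjusted p = 0.041). It was lost with edgeR (adjusted p = 0.051) and on length-corrected values (adjusted p = 0.087), and was also lost in 11 of 16 refits without 1 library (adjusted p from 0.055 to 0.1), namely without either library of E7, E7+TGFb or E7+NODAL, or replicate 2 of E7+2DG, replicate 1 of E7+TGFb+2DG, replicate 1 of E7+ActivinA, replicate 2 of E7+ActivinA+2DG or replicate 1 of E7+NODAL+2DG. EFNA2, EFNA3, EFNA4, EFNB1 and EFNB3 were called in none of the 15 comparisons.

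Of the 5 EphB receptors, 3 rose and 1 fell with 2DG in E7, where 29.4% of all genes were called, and 2 of the 3 higher calls, EPHB2 and EPHB4, were lost on length-corrected values. EPHB1 had 91.1 and 104 normalised reads with 2DG and 36.4 and 35.5 in E7 alone (1.41, SE 0.23, adjusted p = 0.001), and its average over the 4 media was also higher (1.14, SE 0.11, adjusted p = 8.6e-06). Both calls were kept without any 1 library. In TGFb medium EPHB1 had 105 and 100.1 normalised reads with 2DG and 48.3 and 43.1 without it (1.15, SE 0.23, adjusted p = 0.0072), a call lost on leaving out replicate 2 of E7+TGFb (adjusted p 0.078) or either E7+TGFb+2DG library (adjusted p 0.069 and 0.056). With Activin A in the medium it had 126 and 182 with 2DG and 52.5 and 81.9 without it (1.19, SE 0.23, adjusted p = 0.021), a call lost on leaving out replicate 1 of E7+ActivinA (adjusted p 0.11) or replicate 2 of E7+ActivinA+2DG (adjusted p 0.34). Both libraries with 2DG exceeded both without it in each medium. EPHB2 had 504 and 562 with 2DG and 339.9 and 342 in E7 alone (0.64, SE 0.12, adjusted p = 0.0024), kept without any 1 library, and on length-corrected values it did not pass (0.28, adjusted p = 0.086). EPHB4 had 2194 and 2528 with 2DG and 1867 and 1881 in E7 alone (0.33, SE 0.09, adjusted p = 0.017), a call lost on leaving out either E7 library (adjusted p 0.06 and 0.088) or replicate 2 of E7+2DG (adjusted p 0.15) and on length-corrected values (0.23, adjusted p = 0.09).

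EPHB3 was lower with 2DG on average over the 4 media (-0.80, SE 0.12, adjusted p = 0.00027), kept without any 1 library. In E7 it had 76.9 and 71.8 normalised reads with 2DG and 131 and 114 without it (-0.71, SE 0.25, adjusted p = 0.045). That call was lost with edgeR (adjusted p = 0.062) and was also lost in 10 of 16 refits without 1 library (adjusted p from 0.056 to 0.16), namely without either library of E7, E7+2DG, E7+TGFb, E7+TGFb+2DG or E7+NODAL. In NODAL medium EPHB3 had 80.8 and 112 normalised reads with 2DG and 239 and 238 without it (-1.32, SE 0.25, adjusted p = 0.0081), a call lost on leaving out either E7+NODAL library (adjusted p 0.066 and 0.079) or replicate 1 of E7+NODAL+2DG (adjusted p 0.12). NODAL itself gave EPHB3 239 and 238 normalised reads, against 131 and 114 in E7 (0.96, SE 0.25, adjusted p = 0.016), a call lost on leaving out replicate 2 of E7 (adjusted p 0.12) or either E7+NODAL library (adjusted p 0.076 and 0.093). EPHB3 was thus high in the E7+NODAL libraries. With 2DG present it had 201 and 111 with Activin A and 76.9 and 71.8 without it (1.00, SE 0.25, adjusted p = 0.024), a call lost on leaving out either E7+2DG library (adjusted p 0.1 and 0.15) or replicate 1 of E7+ActivinA+2DG (adjusted p 0.27).

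The EphA receptors held 0 calls for 2DG in E7, TGFb or Activin A medium. In NODAL medium 2DG called 2 of the 7 tested lower (2.76% of all genes were lower). EPHA7 had 271 and 275 normalised reads with 2DG there and 387 and 433 without it, a call not kept in every refit without 1 library. Averaged over the 4 media, 2DG called 1 of the 7 higher and 3 lower (background 38.6%, with 19.2% higher and 19.4% lower). EPHA2 was the higher one, and EPHA1, EPHA3 and EPHA7 were lower. Of these averaged calls, that of EPHA1 was not kept in every refit without 1 library. EPHA3 had 72.2 and 119.6 normalised reads with Activin A and 15.3 and 14.2 in E7 (2.58, SE 0.41, adjusted p = 0.0012), kept without any 1 library. In NODAL medium it had 1.82 and 1.05 with 2DG and 16.9 and 12.3 without it (-2.68, SE 0.41, adjusted p = 0.0023), kept without any 1 library, although the libraries with 2DG held under 2 normalised reads. EPHA3 was the 1 guidance gene called for NODAL with 2DG present, at 1.82 and 1.05 normalised reads, against 11.4 and 12 in E7+2DG (-2.40, SE 0.41, adjusted p = 0.017). That call was lost with edgeR (adjusted p = 0.11) and with a pseudocount of 8 (adjusted p = 0.12), and was also lost on leaving out either E7+2DG library (adjusted p 0.14 and 0.17) or either E7+NODAL+2DG library (adjusted p 0.13 and 0.22). The count of 1 became 0 in those refits, 11 without either E7+ActivinA library and 3 without either E7+ActivinA+2DG library. EPHA7 had 628 and 604 normalised reads with Activin A and 2DG and 423 and 359 with 2DG alone (0.66, SE 0.15, adjusted p = 0.013), a call lost on leaving out replicate 2 of E7+2DG (adjusted p 0.16) or replicate 1 of E7+ActivinA+2DG (adjusted p 0.09). EPHA1, the most abundant Eph receptor per kb, gave -0.03 with 2DG (adjusted p = 0.85), 0.18 with Activin A (adjusted p = 0.28) and 0.27 with NODAL (adjusted p = 0.067) in E7. EPHA4, EPHA8 and EPHA10 were called in none of the 15 comparisons.

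The Slits and Robo receptors held few calls. ROBO1, the most abundant of them per kb, had 3268 and 2777 normalised reads with 2DG and 2353 and 1981 in E7, which did not pass the test (0.48, SE 0.19, adjusted p = 0.067). ROBO2 had 381 and 369 with 2DG and 261 and 220.2 in E7 (0.64, SE 0.20, adjusted p = 0.028), a call lost on leaving out replicate 2 of E7 (adjusted p 0.19) or either E7+2DG library (adjusted p 0.12 and 0.089) and on length-corrected values (0.19, adjusted p = 0.32). ROBO3, a receptor of commissural axons, had 119 and 95.2 normalised reads in E7+NODAL and 51.7 and 66.0 in E7 (0.86, SE 0.24, adjusted p = 0.024), a call lost on leaving out either E7 library (adjusted p 0.12 and 0.062) or either E7+NODAL library (adjusted p 0.15 and 0.067). SLIT1, at 14.1 to 66.0 normalised reads, was higher with 2DG on average over the 4 media (0.74, SE 0.20, adjusted p = 0.01), kept without any 1 library. SLIT2 and SLIT3 were called in none of the 15 comparisons.

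UNC5B and the netrins rose with 2DG. UNC5B, a receptor through which netrin-1 repels axons, had 2476 and 2441 normalised reads with 2DG and 1242 and 1030.1 in E7 alone (1.12, SE 0.13, adjusted p = 0.00026). Its average over the 4 media was also higher (0.75, SE 0.07, adjusted p = 3.4e-06). Both calls were kept without any 1 library, and in each medium both libraries with 2DG lay above both without it. In Activin A medium UNC5B had 1325 and 1747 with 2DG and 808 and 991 without it (0.77, SE 0.13, adjusted p = 0.013), a call lost on leaving out replicate 2 of E7+ActivinA+2DG (adjusted p 0.21). In NODAL medium it had 1861 and 1788 with 2DG and 1232 and 1299 without it (0.53, SE 0.13, adjusted p = 0.035), a call lost in 10 of 16 refits without 1 library (adjusted p from 0.052 to 0.22), namely without either library of E7+2DG, E7+TGFb, E7+TGFb+2DG, E7+NODAL or E7+NODAL+2DG. With 2DG present, UNC5B had 1325 and 1747 normalised reads with Activin A and 2476 and 2441 without it (-0.69, SE 0.13, adjusted p = 0.0047), a call lost on leaving out replicate 1 of E7+ActivinA+2DG (adjusted p 0.066). NTN1, netrin-1, had 209 and 229 normalised reads with 2DG and 170.4 and 142 in E7 alone (0.49, SE 0.13, adjusted p = 0.013), a call lost on leaving out replicate 2 of E7 (adjusted p 0.15) or replicate 2 of E7+2DG (adjusted p 0.088). For Activin A medium, NTN1 had 202 and 197 with 2DG and 132 and 129 without it (0.60, SE 0.13, adjusted p = 0.034). That call was lost in 12 of 16 refits without 1 library (adjusted p from 0.056 to 0.24), namely without either library of E7+2DG, E7+TGFb, E7+TGFb+2DG, E7+NODAL or E7+NODAL+2DG, or replicate 1 of E7+ActivinA or replicate 2 of E7+ActivinA+2DG. Averaged over the 4 media NTN1 (0.40, SE 0.06, adjusted p = 0.00032) and NTN4, a laminin-related netrin (1.01, SE 0.16, adjusted p = 0.00024), were higher with 2DG and kept throughout. NTN4 had 4.69 and 6.59 normalised reads with Activin A and 19.1 and 32.5 in E7 (-1.98, SE 0.31, adjusted p = 0.001), kept without any 1 library.

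UNC5D and UNC5A were also called with 2DG. UNC5D had 1511 and 1471 normalised reads with 2DG and 923 and 714 in E7 alone (0.88, SE 0.18, adjusted p = 0.0041), a call lost on leaving out replicate 2 of E7 (adjusted p 0.061). With NODAL it had 1467 and 1526, against 923 and 714 in E7 (0.88, SE 0.18, adjusted p = 0.0056), a call lost on leaving out replicate 2 of E7 (adjusted p 0.079) or replicate 2 of E7+NODAL (adjusted p 0.055). The E7 libraries were the low ones in both. UNC5A had 72.1 and 84.8 normalised reads with 2DG and 39.3 and 50.7 in E7 alone (0.80, SE 0.25, adjusted p = 0.031), a call lost on leaving out either E7 library (adjusted p 0.16 and 0.064) or either E7+2DG library (adjusted p 0.075 and 0.15). With 2DG present it had 43.9 and 27.9 with Activin A and 72.1 and 84.8 without it (-1.14, SE 0.25, adjusted p = 0.012), a call lost on leaving out replicate 2 of E7+2DG (adjusted p 0.12) or replicate 2 of E7+ActivinA+2DG (adjusted p 0.095). UNC5C, at 12 to 41.4 normalised reads, was called in none of the 15 comparisons.

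NFASC, an adhesion protein of the L1 family found at the axon initial segment and the node of Ranvier, rose with Activin A and with NODAL. It lies on the plus strand of chromosome 1 (204828651 to 205022822, GRCh38). In E7 it had 582 and 986 normalised reads with Activin A and 154 and 108 without it (2.55, SE 0.23, adjusted p = 1.2e-05). With 2DG present it had 791 and 808 with Activin A and 94.9 and 95.7 without it (3.06, SE 0.23, adjusted p = 1.4e-06). The groups lay severalfold apart, and both calls were kept without any 1 library. NODAL in E7 gave 563 and 625 normalised reads, against 154 and 108 in E7 (2.19, SE 0.23, adjusted p = 0.00017), kept without any 1 library. With 2DG present, NODAL gave 132 and 132, against 94.9 and 95.7 in E7+2DG, which did not pass the test (0.46, SE 0.23, adjusted p = 0.32).

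2DG lowered NFASC in NODAL and TGFb media. In NODAL medium it had 132 and 132 normalised reads with 2DG and 563 and 625 without it (-2.16, SE 0.23, adjusted p = 0.00022), kept without any 1 library. In TGFb medium it had 101 and 77.2 with 2DG and 195 and 252 without it (-1.32, SE 0.23, adjusted p = 0.0034), a call lost on leaving out replicate 2 of E7+TGFb (adjusted p 0.057) or replicate 2 of E7+TGFb+2DG (adjusted p 0.057). The groups did not overlap in either medium. In E7 (-0.43, SE 0.23, adjusted p = 0.17) and in Activin A medium (0.08, SE 0.23, adjusted p = 0.87) NFASC did not pass the test. The 2DG response in NODAL medium minus that in E7 alone was called for NFASC (-1.73, SE 0.32, adjusted p = 0.038), UNC5D (-1.30, SE 0.26, adjusted p = 0.038) and PLXND1 (-0.85, SE 0.17, adjusted p = 0.038), 3 of the 62 (background 1.87%, with 0.987% higher and 0.885% lower). The NFASC call was lost in 11 of 16 refits without 1 library (adjusted p from 0.074 to 0.2), namely without either library of E7+2DG, E7+TGFb, E7+TGFb+2DG, E7+NODAL or E7+NODAL+2DG, or replicate 2 of E7, and the UNC5D and PLXND1 calls were lost in the same 11 refits at the same adjusted p-values. The shared adjusted p of 0.038 was the smallest of any gene for this difference, and such ties arise from the Benjamini-Hochberg adjustment. On length-corrected values these calls were kept at smaller differences, -1.12 for NFASC, -0.95 for UNC5D and -0.55 for PLXND1. With the replicate number added to the limma model as a block, these 3 calls were lost (adjusted p = 0.058 each). The count of 3 became 0 in those refits of NFASC, 21 without either E7+ActivinA library, and 7 and 8 without E7+ActivinA+2DG replicates 1 and 2. The same difference between TGFb medium and E7 called 0 guidance genes and 0 of all genes (background 0%) with limma and with edgeR, with 14 of the 62 and 2023 of all genes at an unadjusted p under 0.05, and limma called 9, all lower, without either E7+ActivinA library.

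**Figure D5:**
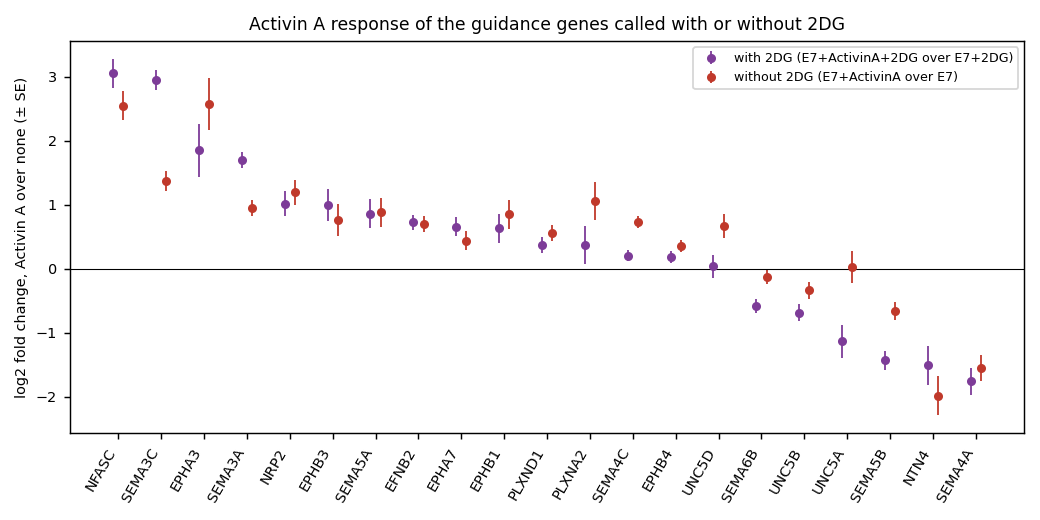
log2 fold change with Activin A (point) and its standard error (line) with 2DG, from E7+ActivinA+2DG over E7+2DG, and without 2DG, from E7+ActivinA over E7, for the 21 guidance genes called in at least 1 of these comparisons. NFASC, SEMA3C, SEMA3A and NRP2 lie above 0 in both and SEMA4A, NTN4 and SEMA5B below 0 in both.

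Beside SEMA3C and SEMA3A, the direct comparison of Activin A with NODAL, both without 2DG, called EFNB2 and EPHA7 among the higher genes above 100 normalised reads. EFNB2 had 1062 and 1419 normalised reads with Activin A and 861 and 846 with NODAL (0.52, SE 0.12, adjusted p = 0.017), a call lost on leaving out either E7+NODAL library (adjusted p 0.1 and 0.12). EPHA7 had 499 and 731 with Activin A and 387 and 433 with NODAL (0.56, SE 0.15, adjusted p = 0.035), a call lost in 9 of 16 refits without 1 library (adjusted p from 0.055 to 0.21), namely without either library of E7+TGFb, E7+TGFb+2DG, E7+NODAL or E7+NODAL+2DG, or replicate 2 of E7+ActivinA. On the lower side SEMA5B had 131 and 154 normalised reads with Activin A and 284 and 265 with NODAL (-0.94, SE 0.14, adjusted p = 0.0019), kept without any 1 library. SEMA4B had 511 and 534 with Activin A and 737 and 728 with NODAL (-0.49, SE 0.09, adjusted p = 0.0072), a call lost on leaving out either E7+NODAL library (adjusted p 0.071 and 0.062). SEMA4D had 564 and 797 with Activin A and 931 and 989 with NODAL (-0.52, SE 0.13, adjusted p = 0.029), a call lost on leaving out replicate 1 of E7+ActivinA (adjusted p 0.098) or either E7+NODAL library (adjusted p 0.11 and 0.19). The groups of these genes, which were picked because they were called, did not overlap. SEMA6A had 5718 and 9312 normalised reads with Activin A and 10970.4 and 11822 with NODAL (-0.64, SE 0.17, adjusted p = 0.036), a call lost in 11 of 16 refits without 1 library (adjusted p from 0.053 to 0.22), namely without either library of E7+2DG, E7+TGFb, E7+TGFb+2DG, E7+NODAL or E7+NODAL+2DG, or replicate 1 of E7+ActivinA. UNC5B had 808 and 991 with Activin A and 1232 and 1299 with NODAL (-0.50, SE 0.13, adjusted p = 0.036), a call lost in 11 of 16 refits without 1 library (adjusted p from 0.053 to 0.21), namely without either library of E7+2DG, E7+TGFb, E7+TGFb+2DG, E7+NODAL or E7+NODAL+2DG, or replicate 1 of E7+ActivinA. NFASC, which rose with each ligand in E7, did not pass the test between them (0.35, SE 0.23, adjusted p = 0.37).

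Markers of other cell types differed between the groups. The summed level of 9 mesendoderm markers was 2804 and 2348 normalised reads in E7+ActivinA, 1007 and 977 in E7+NODAL, and 470.1 and 552 in E7. It was 2219 and 1440.0 in E7+ActivinA+2DG, 359.6 and 337 in E7+NODAL+2DG, and 180.3 and 188 in E7+2DG, and SOX17 and GATA6 of that list were not analysed here. In bulk RNA, fewer cells of a type and less RNA per cell cannot be told apart. The sum of 4 neural crest markers was 3191 and 4637 in E7+ActivinA and 2392 and 2236 in E7, but of the 3 tested only ETS1 was called (1.01) and their median change was -0.16. The sum of 7 endothelial markers was 5405 and 4964 in E7+2DG and 3498 and 2813 in E7, with 2 of the 7 called, both higher (29.4% of all genes were called). In TGFb, Activin A and NODAL media 0 of the 7 were called with 2DG. Averaged over the 4 media, KDR (0.51) and FLT1 (0.33) were higher and ERG (-0.87) was lower, and the median of the list was -0.27. The sum of 11 neuronal markers was 5411 and 5242 in E7+ActivinA, 6882 and 7307 in E7+2DG, and 6827 and 6494 in E7. Calls within this list went both ways. In E7, 2DG called 2 higher and 2 lower (14.6% and 14.8% of all genes), and Activin A called 1 higher and 3 lower (5.28% and 4.74%). The part of these cells in the guidance gene results was not tested.

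Other proteins of the guidance pathways were read from separate lists. Their counts are read beside the shares of all genes called in E7, which were 29.4% for 2DG (14.6% higher, 14.8% lower), 10% for Activin A (5.28% higher, 4.74% lower) and 21.5% for NODAL (10.6% higher, 10.9% lower). Of 13 tested further receptors, ligands and binding proteins, 4 rose and 1 fell with 2DG in E7. FLRT2, a ligand of UNC5D, had 81.3 ± 4.96 normalised reads with 2DG and 37.3 ± 14.8 in E7 (SD, n = 2 each; log2 fold change 1.16, limma adjusted p = 0.015). RGMB, a ligand of neogenin, had 286 ± 14.7 with 2DG and 141 ± 1.84 in E7 (1.01, adjusted p = 0.0016). With Activin A in E7, 2 of the 13 rose and 0 fell. DCC, the attractive netrin receptor, had 54.1 ± 15.4 normalised reads with Activin A and 11.4 ± 2.56 in E7 (2.14, adjusted p = 0.0011). RGMA, another neogenin ligand, had 690.4 ± 25.1 with Activin A and 319.8 ± 28.5 in E7 (1.11, adjusted p = 0.00022). With NODAL in E7, 3 rose and 0 fell, among them DCC (1.24, adjusted p = 0.02) and RGMA (0.77, adjusted p = 0.0033). Of 9 tested relatives and partners of neurofascin, 3 rose with 2DG in E7, 1 with Activin A and 2 with NODAL, and 0 fell. L1CAM, the founding member of the L1 family, was called in all 3, at 1.21 with 2DG (adjusted p = 0.00075), 0.67 with Activin A (adjusted p = 0.033) and 0.83 with NODAL (adjusted p = 0.0077), all against the same E7 libraries.

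Of 41 tested intracellular signalling proteins, 8 rose and 5 fell with 2DG in E7, 6 rose and 2 fell with Activin A, and 9 rose and 1 fell with NODAL, in E7. For 2DG and NODAL the number called, 13 and 10 of 41, is near the 29.4% and 21.5% of all genes. TRIO, an exchange factor for Rac, had 1947 ± 177 normalised reads with 2DG and 802 ± 217 in E7 (SD, n = 2 each; log2 fold change 1.30, limma adjusted p = 0.006). CDK5, a kinase that acts on guidance signalling proteins, had 226 ± 2.63 with 2DG and 374 ± 40.5 in E7 (-0.72, adjusted p = 0.008). MICAL2, an actin-oxidising enzyme, had 67.7 ± 13.6 with NODAL and 20.4 ± 13.1 in E7 (1.82, adjusted p = 0.014). NCK2, an adaptor protein, had 1942 ± 127 with Activin A and 1022 ± 24.7 in E7 (0.92, adjusted p = 1.7e-05). With 2DG present, NODAL and TGFb called 0 genes of any of the 3 lists, and TGFb in E7 also called 0. Of all genes, 0.634% were called for NODAL with 2DG and 0% for TGFb, with or without 2DG.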

How the data were processed

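The authors deposited 1 table of 17738 genes whose values are a signal per gene: read counts divided by a size factor of each library. The tools used were DESeq2 1.26.0, featureCounts 1.5.3, STAR and Trimmomatic 0.36 on the build hg38, per the submitters' processing notes, which give no roles; the strand setting is not given in the sources used here. Every value was a whole multiple of what 1 read is worth in its library (100% within a tolerance of 1e-06), which gave 14600479 to 17630329 recovered reads per library.

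The 16714 genes with values of 10 or higher in 2 or more libraries were tested with limma 3.58.1 in R 4.3.3 on log2(value + 1), which understates the change of low genes. 1 model of 8 group means over the 16 libraries gave 15 comparisons, with Benjamini-Hochberg adjustment over all genes at 0.05. edgeR 4.0.16 was run on the recovered reads as an alternative, and the script was tested on simulated data. Other alternatives were TMM scaling, no filter, a pseudocount of 8, a replicate block, leaving out the 4 Activin A libraries or each of the 16 libraries, and length-corrected values, chosen after seeing the data. Gene lengths and positions are from GENCODE 29.

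The genes and lists were chosen with earlier results of these data known. Full values were given for up to 5 called genes per comparison and direction, by size of change, whose higher group averaged at least 100 normalised reads, and for up to 4 called genes per pathway list; the other genes were named as members of their families. EPHA5, NRP1, NTN3, NTN5, PLXNB3 and ROBO4 were not analysed here.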

Additional observations from a re-analysis of the deposited data

Results flagged for a closer look

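For 4 guidance genes the 2DG response in a ligand medium differed from that in E7 alone by a test of the difference itself, with limma and adjustment over all genes. SEMA3C had a 2DG response higher by 1.58 (log2) in Activin A medium than in E7 (adjusted p = 0.019). Of all genes, 0.0419% were called for that difference. In NODAL medium the 2DG response was lower than in E7 for NFASC (difference -1.73), UNC5D (-1.30) and PLXND1 (-0.85), each at an adjusted p of 0.038. This was the smallest adjusted p of any gene for that difference. The SEMA3C call was lost in 10 of the 16 refits without 1 library and the other calls in 11 each. Over all genes, exon length went with the difference in 2DG response between NODAL medium and E7 (rho = -0.38). The same held for TGFb medium and E7 (rho = -0.38), and less for Activin A medium and E7 (rho = -0.15). On length-corrected values the calls were kept at -1.12 for NFASC, -0.95 for UNC5D and -0.55 for PLXND1.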

How the results depend on the processing

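Of 154 called results on single guidance genes, 153 kept direction and call with TMM scaling, 153 with no filter, 152 with a pseudocount of 8, 147 with edgeR, 146 on length-corrected values and 141 with the replicate block, and 71 of 71 did so without the 4 Activin A libraries. The 1 reversed value was SEMA4D with 2DG in E7, at -0.012 on length-corrected values.

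Without the 4 Activin A libraries, more guidance genes were called, as were more of all genes (shares in brackets): 23 for 2DG in TGFb medium (24.9%), 21 for 2DG in NODAL medium (20.6%), 22 for TGFb in E7 (26.7%), 32 for NODAL in E7 (39.2%), 13 for NODAL with 2DG (17.9%), and 12 (15%) and 24 (29.1%) for the difference between 2DG responses in TGFb and NODAL media and E7. Length-corrected values called 25 for Activin A in E7 (14.3%), 2 for NODAL with 2DG (2.09%) and 8 for the NODAL difference (7.88%). NODAL with 2DG had 0 calls with a pseudocount of 8 and 0 with edgeR, and the NODAL difference had 0 with the replicate block (adjusted p = 0.058 for NFASC, UNC5D and PLXND1), which also lost EPHB3 with 2DG in E7 (adjusted p = 0.054). The cause of these shifts was not tested. Of 28 pairs of same-numbered libraries, 3 had deviations that correlated above 0.1 (range -0.39 to 0.24). This cannot decide whether the numbers pair the libraries, because in some groups the replicate difference also went with exon length. The labels do not state a pairing.

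Leaving out 1 library gave 11 to 30 calls for 2DG in E7, 4 to 20 in TGFb medium, 0 to 27 in Activin A medium, 5 to 20 in NODAL medium and 24 to 38 on average. It gave 0 to 19 for TGFb, 11 to 25 for Activin A and 5 to 30 for NODAL in E7. With 2DG it gave 0 to 0 for TGFb, 8 to 21 for Activin A and 0 to 11 for NODAL. Activin A against NODAL had 5 to 24, and the differences between 2DG responses had 0 to 9 for TGFb, 0 to 15 for Activin A and 0 to 21 for NODAL. In these refits the lone library of a group was assumed to vary like the others. A call was lost in 481 of 2464 values and reversed in 0. With 2 libraries a group, small changes of low genes could not be resolved.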
